A study of Homo sapiens with 12 samples.

Results

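The integrin and laminin genes were taken from the deposited table by symbol, as every gene named as an integrin alpha chain, an integrin beta chain or a laminin chain. The rule found 38 of 62700 genes: 18 alpha chains, 8 beta chains and 12 laminin chains. Members with a mean under 10 counts over the 12 libraries were set down as not expressed, which left 30 expressed genes (13 alpha, 7 beta and 10 laminin). All 30 also passed the filter used for testing.

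Laminins are secreted trimers of 1 alpha, 1 beta and 1 gamma chain, and they form the sheet of the basement membrane on which epithelial cells rest. Integrins are membrane receptors made of 1 alpha and 1 beta chain that bind laminins, collagens, fibronectin and other matrix proteins outside the cell and the actin or keratin cytoskeleton inside it. In the gut epithelium laminin that holds the chains LAMA3 and LAMB3 is bound by the integrin of ITGA6 and ITGB4 in hemidesmosomes and by that of ITGA3 and ITGB1 in focal contacts.

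HCT116 is a human colorectal carcinoma line. In the derivative used here, HCT116 TIM-mAID, a CRISPR knock-in put the mAID degron tag on TIMELESS, a replication fork protein, and every group carried this tag, the DMSO controls included. The labels do not say how many clones the line comprises. Cells were treated for 40 h with DMSO, with 5-Ph-IAA at 1 µM (the auxin analogue that triggers degradation of tagged proteins), with the ATR kinase inhibitor ceralasertib at 1 µM (ATRi), or with both compounds at 1 µM each (5-Ph-IAA/ATRi, called the combination here), with 3 biological replicates per group per the design text. Poly(A) RNA was sequenced.

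Libraries held 27.7 to 34.7 mega counts, and the mitochondrial share of the counts was 6.63% to 14.9%. It was highest in DMSO 2, 5-Ph-IAA 1, ATRi 1 and combination 1 of their groups. Epithelial markers were present, with a summed level of 4650 to 6780 CPM with DMSO and 10300 to 11800 CPM with the combination (CPM, counts per mega count after TMM scaling), and 9 of their 13 genes had a mean of at least 10 counts. Most of that sum came from the keratins KRT8, KRT18 and KRT19, whose means were 1942, 1079 and 1599 CPM with DMSO and 4964, 2225 and 2956 CPM with the combination. Of the fibroblast and endothelial markers 2 of 7 and 2 of 5 reached that mean, and none of the 4 platelet markers did. The fibroblast marker COL1A1 was well above it, with a mean of 1851 counts and 35.1 to 106 CPM with DMSO. The degron acts on the protein, so that RNA does not check the loss of TIMELESS.

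The promoters below are those of laminin genes: LAMA3 rose and LAMB1 fell in the combination, and LAMB3 is a partner chain of LAMA3. LAMB3 itself did not pass the threshold against DMSO, and promoters of other members are not shown. Sequences are those of RefSeq on GRCh38.p14, 5′ to 3′ on the strand of the gene, from the 250 bases before an annotated start. Capitals mark TGANTCA, the letters that AP-1 transcription factors bind, where they occur on either strand. Both matches of LAMA3 lie in a stretch that GENCODE v29 places in an exon, so only 30 bases around each are shown. Bases in GENCODE exons are left out for LAMB3 and LAMB1. LAMB3 has several windows, and the window shown was picked because it holds a match, while those without a match are left out.

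LAMA3 chr18:23872883-23872912 (+): tctggcacaggcTGACTCAtgtgtgaagtt

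LAMA3 chr18:23872939-23872968 (+): gccttcctcaccTGAGTCAggcaggcccgg

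LAMB3 chr1:209651395-209651624 (-): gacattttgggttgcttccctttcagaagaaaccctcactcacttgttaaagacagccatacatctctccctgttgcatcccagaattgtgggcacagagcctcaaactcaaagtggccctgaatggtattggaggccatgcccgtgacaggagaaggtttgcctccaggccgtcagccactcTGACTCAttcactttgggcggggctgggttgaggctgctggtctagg

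LAMB1 chr7:108003256-108003411 (-): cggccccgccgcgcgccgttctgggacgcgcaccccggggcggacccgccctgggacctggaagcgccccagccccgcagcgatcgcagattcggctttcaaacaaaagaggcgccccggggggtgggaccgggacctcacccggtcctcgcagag

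The first letter of the LAMA3 matches lay 125 and 69 bases before an internal start of the gene. That of the LAMB3 match lay 67 bases before one of its 3 annotated starts, also an internal one. TGANTCA occurred in 6.57% of 35116 promoter windows of 250 bases. Among the 22 expressed members with a window (29 windows), 2 windows held it, those of LAMA3 and LAMB3, and the LAMB1 window held none. The GC box GGGCGG, searched on both strands in the same windows, was in 16 of the 29 windows, against 42.6% of all windows. The letters CCAAT were in 4 of the 29, against 32% of all windows, and TATAAA in 2, against 10.7%. A match describes letters only, and whether a factor bound them was not measured.

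The levels of the 30 genes ran from 0.0791 for ITGA9 upward with DMSO, in CPM per kilobase of the longest transcript. That scale corrects for length, but the longest transcript need not be the one expressed, so ranks between genes are approximate. LAMA3 has an internal start, and if a shorter form were the one expressed its level would be higher than given. The highest were the beta chain ITGB1 at 177 ± 28.7 and the alpha chain ITGA3 at 146 ± 48.9, which together form a laminin receptor (SD, n = 3, as for all levels given as ±). These neighbours overlapped in their libraries, which covered 148 to 205 for ITGB1 and 111 to 202 for ITGA3. ITGB4, the beta chain of hemidesmosomes, followed at 91.4 ± 4.16. Its partner ITGA6 stood at 29.7 ± 10.7. Among the laminins, LAMA5 stood highest at 57.2 ± 32.5, LAMB2 was at 29.3 ± 6.57 and LAMC1 at 18.9 ± 4.19, which are the chains of laminin-521, a common laminin of mature epithelia. The libraries of ITGA6 and LAMB2 overlapped. LAMB3 and LAMA3 were lower, at 11.8 ± 4.54 and 1.03 ± 0.0115.

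**Figure D1:**
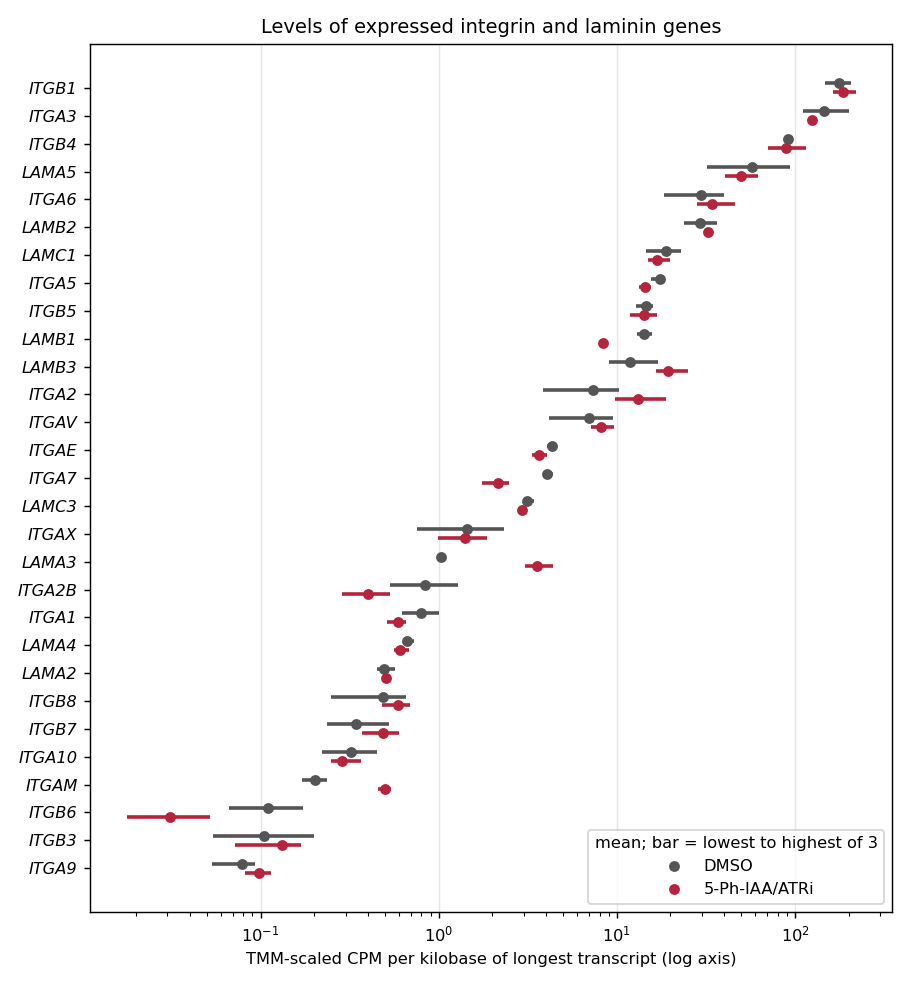
Level of expressed integrin and laminin genes with DMSO (grey) and with the combination (red), in TMM-scaled CPM per kilobase of the longest transcript on a log axis. Points are means of 3 libraries and bars run from the lowest to the highest library, so that LAMA3 at 1.03 and 3.54 and LAMB1 at 14.2 and 8.37 can be seen to separate while ITGB1 and ITGA3 overlap.

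The 8 genes not expressed were ITGA4, ITGA8, ITGA11, ITGAD, ITGAL, ITGB2, LAMA1 and LAMB4. Their mean counts over the 12 libraries were 0.3 for LAMB4 to 3.6 for ITGAL. ITGB2, the beta chain of leukocyte integrins, had 1, 2 and 2 counts with DMSO, 1, 1 and 4 with 5-Ph-IAA, 1, 2 and 0 with ATRi, and 6, 4 and 8 with the combination. No fold or test is given for counts this low.

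Neither compound alone moved a member past the threshold, an adjusted p below 0.05 in edgeR's quasi-likelihood test with Benjamini-Hochberg adjustment over 18049 genes. With 5-Ph-IAA against DMSO, 0 of 30 members passed, where 0.00554% of all genes did. At an unadjusted p below 0.05 there was 1 member, LAMA3, where 1.32% of all genes were. DESeq2 called 0 members and 0.0997% of all genes. The libraries of LAMA3 were also the only ones that did not overlap those of DMSO, 1 of 30 against 3.37% of all genes. With ATRi against DMSO, 0 of 30 passed by edgeR and by DESeq2, where 0.0665% and 0.565% of all genes passed. At an unadjusted p below 0.05 there were 3 members (LAMA3 higher, LAMB1 and ITGA7 lower), against 4.86% of all genes. Groups did not overlap for 5 of 30 members, against 8.8% of all genes: LAMA3 above DMSO, and LAMB1, LAMC3, ITGA7 and ITGB4 below it. In that comparison 25 of 30 log2 changes were negative, with a median of -0.23 where the median of all genes was -0.02. The 3 comparisons with DMSO share the same 3 control libraries.

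In the combination against DMSO, 5 of 30 members passed the threshold, where 13.1% of all genes did. Laminin alpha 3 (LAMA3) and the alpha chain ITGAM rose, laminin beta 1 (LAMB1), the alpha chain ITGA7 and the beta chain ITGB6 fell, and 25 missed the threshold. Over all genes 6.24% passed as higher and 6.89% as lower. The median log2 change over the members was -0.03, and that over all genes -0.02. Libraries of both groups did not overlap for 7 of 30 members, against 32.3% of all genes, among them the 5 above and ITGA2B, which lay below DMSO. DESeq2 called 6 members, adding ITGA2B, and 18.1% of all genes. By edgeR the count was 3 to 4 when any 1 of the 12 libraries was left out, and the share of all genes then 6.68% to 14%. LAMA3, LAMB1 and ITGA7 passed in each of these 12 fits, whereas ITGAM and ITGB6 each failed in some. The count was 3 without DMSO 2, without DMSO 3, without combination 1 and without combination 3. With the mitochondrial share of each library as a covariate 11 members and 35.7% of all genes passed. The members then included the same 5 and ITGA2, ITGA2B, ITGA6, ITGAV and LAMA5. These are bulk samples, in which fewer cells of a kind and less RNA per cell cannot be told apart.

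**Figure D2:**
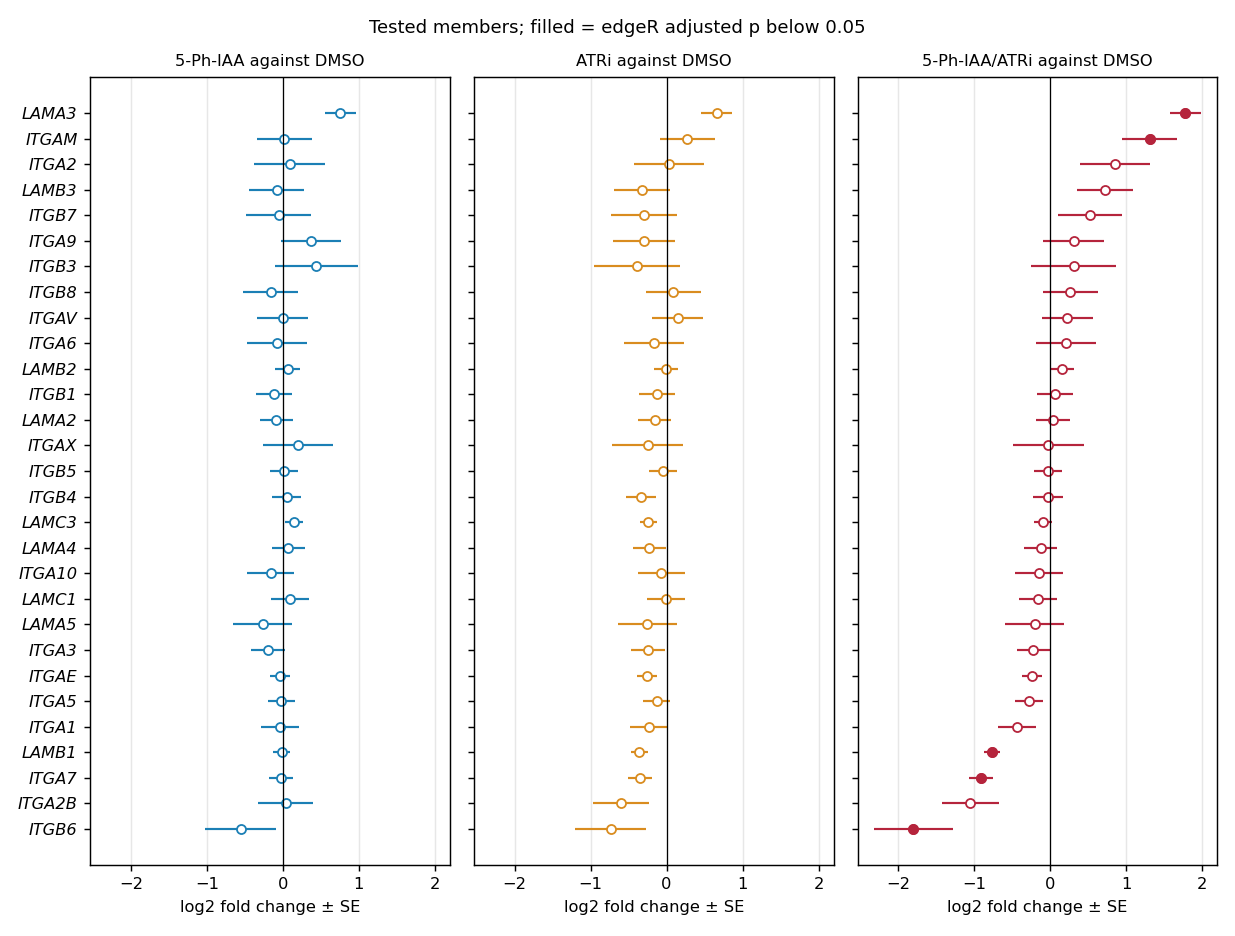
Log2 fold change ± standard error of tested integrin and laminin genes with 5-Ph-IAA, ATRi and the combination, each against the same 3 DMSO libraries, ordered by the change in the combination. Filled points passed the threshold (edgeR adjusted p below 0.05): none in the first and second panels, and LAMA3, ITGAM, LAMB1, ITGA7 and ITGB6 in the third.

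LAMA3 is an alpha chain of the laminin bound in hemidesmosomes (chromosome 18, 23689453 to 23955066, plus strand). Its level was 11.1, 10.9 and 11.0 CPM with DMSO, 13.8, 19.0 and 23.0 with 5-Ph-IAA, 14.6, 17.4 and 20.1 with ATRi, and 33.9, 32.7 and 46.6 with the combination. Every library of each single compound lay above all 3 of DMSO, those of the single compounds overlapped each other, and every combination library lay above all 9 others. The log2 change was 0.76 ± 0.20 with 5-Ph-IAA (edgeR adjusted p = 1) and 0.66 ± 0.20 with ATRi (edgeR adjusted p = 0.618), neither past the threshold.

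With the combination LAMA3 rose 3.43-fold over DMSO, a log2 change of 1.78 ± 0.21 (edgeR adjusted p = 0.000349). Against 5-Ph-IAA alone the change was 1.02 ± 0.20 (edgeR adjusted p = 0.0103), and without combination 3 it missed the threshold (edgeR adjusted p = 0.0502). Against ATRi alone it was 1.12 ± 0.20 (edgeR adjusted p = 0.016). It no longer passed without ATRi 1, without ATRi 2 or without combination 3 (adjusted p up to 0.0752). The interaction, the log2 change in the combination less both single log2 changes, was 0.36 ± 0.29 (edgeR adjusted p = 0.977), with a 95% interval of -0.27 to 0.99.

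LAMB3 is the beta chain that pairs with LAMA3. It was at 39.0, 73.3 and 39.9 CPM with DMSO, 26.1, 70.6 and 47.1 with 5-Ph-IAA, 28.3, 41.8 and 51.4 with ATRi, and 71.0, 71.7 and 108 with the combination. The lowest combination library lay above all libraries of the single compounds and below DMSO 2. Against DMSO the log2 change of LAMB3 was 0.72 ± 0.37 (edgeR adjusted p = 0.24; 95% interval -0.09 to 1.53), which did not pass.

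**Figure D3:**
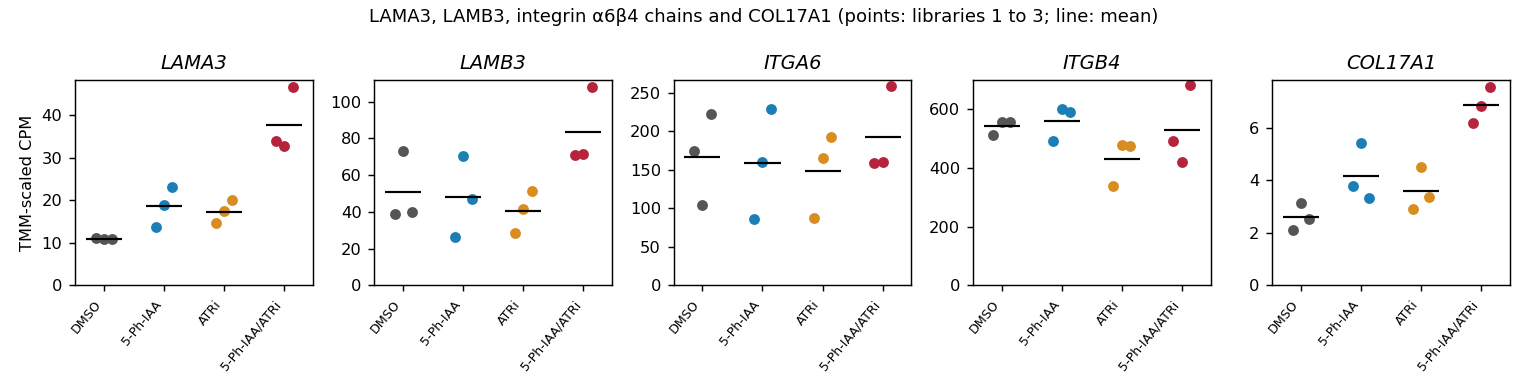
TMM-scaled CPM in each library (points, replicates 1 to 3 from left to right in each group) and group means (lines) for the laminin chains LAMA3 and LAMB3, the 2 chains of the hemidesmosomal integrin and COL17A1, a hemidesmosomal collagen. The combination libraries of LAMA3 and COL17A1 lie above all others, and the combination overlaps DMSO for ITGA6 and ITGB4.

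LAMB1, the beta chain of several widely expressed laminins (chromosome 7, 107923799 to 108003161, minus strand), went the other way. Its level was 80.2, 90.5 and 75.2 CPM with DMSO, 76.3, 87.2 and 79.6 with 5-Ph-IAA, 64.3, 65.9 and 61.9 with ATRi, and 47.0, 51.0 and 46.8 with the combination. DMSO and 5-Ph-IAA overlapped, the ATRi libraries lay below both, and the combination lay below all 9 others. The log2 change against DMSO was -0.02 ± 0.11 with 5-Ph-IAA, -0.36 ± 0.11 with ATRi (edgeR adjusted p = 0.605) and -0.76 ± 0.11 with the combination (edgeR adjusted p = 0.00113).

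Against 5-Ph-IAA alone LAMB1 fell by 0.75 ± 0.11 on the log2 scale (edgeR adjusted p = 0.00205). Against ATRi alone its change was -0.41 ± 0.11 and did not pass (edgeR adjusted p = 0.0639). DESeq2 called it, as did edgeR without DMSO 2, with the replicate number as a block and with the mitochondrial covariate. The other alternatives did not. The interaction was -0.39 ± 0.15 (edgeR adjusted p = 0.59). LAMB1 shares exon sequence with DLD on the opposite strand, whose log2 change with the combination was 0.06 ± 0.27. The strand setting of the counting is not given in the sources used here, so reads of both genes cannot be told apart with certainty.

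The remaining laminin chains did not pass in any comparison. LAMA5, the most abundant alpha chain, was at 521, 1073 and 368 CPM with DMSO, 760, 545 and 329 with 5-Ph-IAA, 646, 602 and 400 with ATRi, and 706, 465 and 529 with the combination. All groups overlapped, and within DMSO the highest library was 2.92 times the lowest. LAMB2, the most abundant beta chain, was at 157, 207 and 134 CPM with DMSO, 173, 200 and 148 with 5-Ph-IAA, 162, 174 and 160 with ATRi, and 188, 174 and 192 with the combination. LAMC1, the most abundant gamma chain, was at 152, 115 and 181 CPM with DMSO, 112, 158 and 209 with 5-Ph-IAA, 112, 161 and 173 with ATRi, and 125, 118 and 157 with the combination. In the combination against DMSO the log2 changes were -0.21 ± 0.39 for LAMA5, 0.15 ± 0.16 for LAMB2 and -0.17 ± 0.25 for LAMC1. The 95% interval for LAMA5, -1.06 to 0.65, still holds changes of about the size seen for LAMB1. LAMA5 shares exon sequence with ADRM1, a proteasome subunit gene on the opposite strand that rose by 0.59 on the log2 scale (edgeR adjusted p = 0.00466), and its values carry the uncertainty given above for strand.

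LAMA2 and LAMA4, alpha chains known from muscle and vessels, and the gamma chain LAMC3 had log2 changes with the combination of 0.04 ± 0.22, -0.12 ± 0.22 and -0.09 ± 0.11.

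Among the alpha chains, ITGA7 fell. It pairs with ITGB1 as a laminin receptor best known from muscle (chromosome 12, 55684568 to 55716400, minus strand). Its level was 16.3, 18.0 and 15.9 CPM with DMSO, 17.0, 18.7 and 13.6 with 5-Ph-IAA, 13.3, 13.2 and 12.8 with ATRi, and 9.27, 10.2 and 7.17 with the combination. All combination libraries lay below the 9 others, and those of ATRi lay below DMSO. The log2 change with the combination was -0.91 ± 0.16 against DMSO (edgeR adjusted p = 0.00388) and -0.89 ± 0.16 against 5-Ph-IAA (edgeR adjusted p = 0.00669).

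Against ATRi alone the change of ITGA7 was -0.56 ± 0.16 and did not pass (edgeR adjusted p = 0.0848). DESeq2 called it, as did edgeR with the replicate number as a block and with the mitochondrial covariate, while the other alternatives did not. The interaction was -0.54 ± 0.23 (edgeR adjusted p = 0.637). Exons of ITGA7 overlap those of METTL7B and BLOC1S1 on the opposite strand. METTL7B rose by 0.43 ± 0.12 on the log2 scale (edgeR adjusted p = 0.0376), and BLOC1S1 had a change of -0.49 ± 0.24.

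ITGAM, the alpha chain of a leukocyte integrin, had few counts. They were 36, 23 and 33 with DMSO, 42, 25 and 22 with 5-Ph-IAA, 54, 35 and 28 with ATRi, and 72, 60 and 66 with the combination. In CPM the combination libraries, 2.58, 2.18 and 2.34, lay above all 9 others. The log2 change was 1.31 ± 0.36 against DMSO (edgeR adjusted p = 0.0331) and 1.29 ± 0.36 against 5-Ph-IAA (edgeR adjusted p = 0.0451). The first call did not survive the removal of any 1 of the 6 libraries compared (adjusted p up to 0.102). The second was lost without 8 of the 12 libraries (DMSO 1 and 3, 5-Ph-IAA 2 and 3, ATRi 2 and all 3 of the combination), with adjusted p-values of up to 0.146. With all libraries it was also lost with upper quartile factors, with no count filter and with only the groups compared (edgeR adjusted p = 0.0629, 0.065 and 0.0854).

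The beta chain that ITGAM needs at the surface, ITGB2, was not expressed by the rule above. Of 9 leukocyte markers 1 had a mean of at least 10 counts and 3 were tested. CD14, a lipopolysaccharide co-receptor, rose by 2.42 ± 0.37 on the log2 scale (edgeR adjusted p = 0.00183), with a mean of 8 counts. It was at 0.085 to 0.141 CPM with DMSO and at 0.497 to 0.752 CPM with the combination. Only its combination libraries were high enough for the count filter, so that its adjusted p is no support for the rise. The leukocyte marker with the highest mean, 25.6 counts, was CSF1R, a receptor of macrophages. Its change was -0.05 ± 0.26, and its combination libraries overlapped DMSO and lay below those of both single compounds. CD79A, of B cells, also entered the test through its combination libraries. It had a change of 1.41 ± 0.56 and did not pass. PTPRC, which defines leukocytes, had a mean of 1.33 counts. The summed level of the leukocyte markers was 0.879 to 1.33 CPM with DMSO and 1.92 to 2.18 CPM with the combination. What part these markers have in the result for ITGAM was not tested.

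ITGB6, which pairs with ITGAV and activates latent TGF-beta in epithelia, was near the lower limit. Its counts were 10, 23 and 15 with DMSO, 8, 14 and 11 with 5-Ph-IAA, 8, 12 and 11 with ATRi, and 3, 6.69 and 2.33 with the combination. In CPM the combination libraries, 0.107, 0.243 and 0.0827, lay below those of DMSO and 5-Ph-IAA and overlapped those of ATRi. The log2 change against DMSO was -1.80 ± 0.52 (edgeR adjusted p = 0.0414). It still passed without DMSO 1 or combination 2, and it missed the threshold without each of the other 10 libraries (adjusted p up to 0.151). With all libraries it missed it with upper quartile factors (edgeR adjusted p = 0.0503) and with no count filter (edgeR adjusted p = 0.0692).

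**Figure D4:**
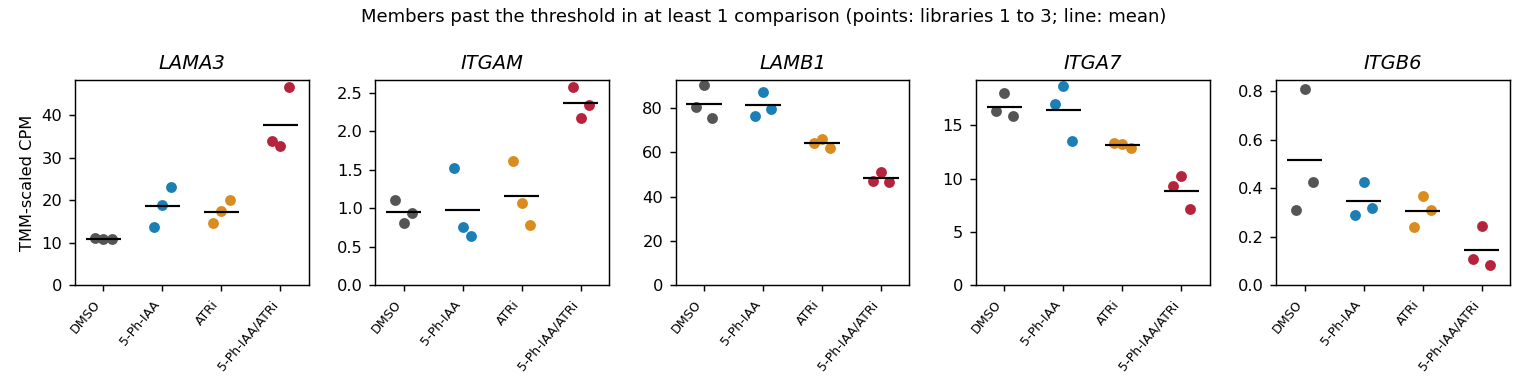
TMM-scaled CPM in each library (points, replicates 1 to 3 from left to right in each group) and group means (lines) for the 5 genes past the threshold in at least 1 comparison. The combination libraries lie above all others for LAMA3 and ITGAM and below all others for LAMB1 and ITGA7, and the axis of ITGB6 ends below 1 CPM.

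The abundant laminin receptor chains did not pass in any comparison. ITGA3 was at 685, 1107 and 610 CPM with DMSO, 653, 877 and 571 with 5-Ph-IAA, 631, 738 and 664 with ATRi, and 707, 682 and 673 with the combination. ITGB1, the shared partner of most alpha chains found here, was at 671, 559 and 776 CPM with DMSO, 426, 653 and 774 with 5-Ph-IAA, 462, 683 and 687 with ATRi, and 615, 656 and 832 with the combination. Combination and DMSO libraries overlapped for both. The log2 changes against DMSO were -0.22 ± 0.22 for ITGA3, 0.07 ± 0.24 for ITGB1, 0.21 ± 0.40 for ITGA6 and -0.03 ± 0.19 for ITGB4. Their 95% intervals were -0.70 to 0.26, -0.45 to 0.59, -0.67 to 1.08 and -0.45 to 0.39.

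The collagen receptor chains ITGA1 and ITGA2 had log2 changes of -0.43 ± 0.25 and 0.85 ± 0.46 (edgeR adjusted p = 0.299 and 0.271). Exons of ITGA1 (mean of 244 counts) overlap those of PELO (1042 counts) on the same strand. The change of PELO was 0.49 ± 0.28 and did not pass. ITGA2 ranged from 30.2 to 80.8 CPM with DMSO and from 77.3 to 149 CPM with the combination. ITGA2B, the alpha chain of the platelet fibrinogen receptor, had 76, 121 and 63 counts with DMSO and 36, 49 and 27 with the combination. In CPM the groups did not overlap but nearly met, with 1.786 in DMSO 3 and 1.78 in combination 2. The change of ITGA2B, -1.06 ± 0.38, did not pass (edgeR adjusted p = 0.0914). Platelet markers were at or near 0, with a summed level of at most 0.071 CPM in any library. The fibronectin receptor chain ITGA5 changed by -0.28 ± 0.18 and ITGAV, which pairs with several beta chains, by 0.22 ± 0.33, neither past the threshold. The other chains, ITGA9, ITGA10, ITGAE, ITGAX, ITGB3, ITGB5, ITGB7 and ITGB8, lay between -0.24 and 0.52.

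In the combination against 5-Ph-IAA alone, 4 of 30 members passed (LAMA3 and ITGAM higher, LAMB1 and ITGA7 lower), where 9.41% of all genes did. Groups did not overlap for 9 of 30, against 27.6% of all genes. The sample titles number sets 1 to 3 in every group but do not state a pairing. Deviations of same-numbered libraries in this comparison had correlations of 0.375, 0.18 and 0.543. Those of the other comparisons of 2 groups ran from -0.094 to 0.756. A fit with the number as a block over all 12 libraries called 7 members and 19.6% of all genes. Among these members were the 4 above, LAMB3 and ITGA2B. In that fit the log2 change of LAMB3 was 0.90 (edgeR adjusted p = 0.0403). Without the block it was 0.80 and did not pass (edgeR adjusted p = 0.225). The count without the block was 2 when combination 3 was left out and 3 to 5 without each other library in turn, with 4.21% to 11% of all genes.

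In the combination against ATRi alone, 1 of 30 members passed, LAMA3, where 3.51% of all genes did. Groups did not overlap for 9 of 30, against 26.9% of all genes, among them LAMA2, LAMA3, LAMB3, LAMC3, ITGAM and ITGB7 above ATRi, and LAMB1 and ITGA7 below it. DESeq2 called 3 members, adding LAMB1 and ITGA7, and 8.09% of all genes. The edgeR count was 0 without ATRi 1, without ATRi 2 and without combination 3, and 2 without DMSO 2. The comparisons of the combination with each group share its 3 libraries. For the interaction 0 of 30 members passed by edgeR and by DESeq2, where 0.0776% of all genes passed by edgeR, and 2 had an unadjusted p below 0.05, LAMB1 and ITGA7, against 7.3% of all genes.

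Libraries of 1 group differed for several members together. In all 4 groups the library with the highest mitochondrial share held the lowest level of ITGA1, ITGA6, ITGA9, ITGAV, ITGB1 and LAMA2, and the highest level of ITGAX and LAMA5. The share of all genes with such an order was not counted, so it is not read as a trait of these members. Within DMSO the highest library was 2.15 times the lowest for ITGA6, 2.27 times for ITGAV and 3.05 times for ITGAX. LAMA3 was lowest in the library with the highest share in 3 of the 4 groups, and 1.02 times apart within DMSO. Calls with that share as a covariate are given above for the combination against DMSO.

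**Figure D5:**
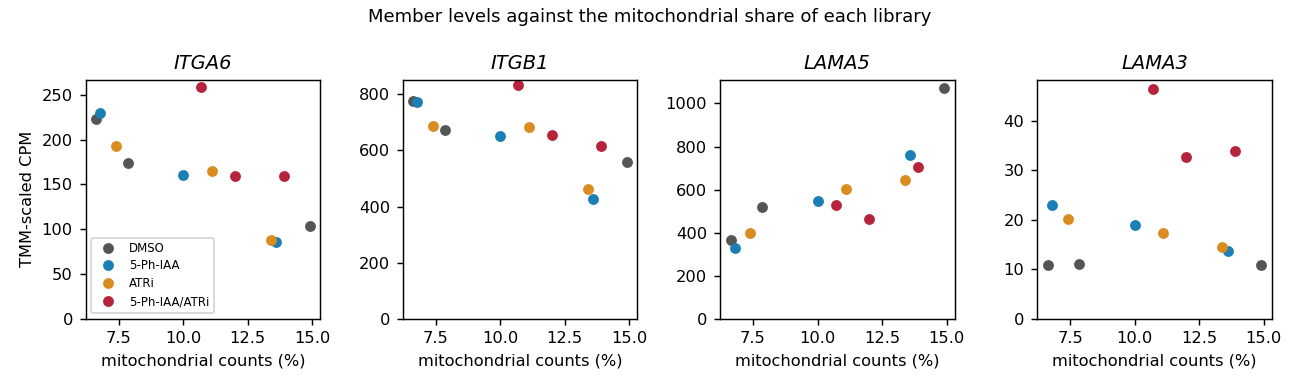
TMM-scaled CPM of ITGA6, ITGB1, LAMA5 and LAMA3 in each of the 12 libraries against the percentage of its counts from the mitochondrial genome, coloured by group. ITGA6 and ITGB1 are lowest and LAMA5 is highest in the library with the largest share of each group, while the 3 combination libraries of LAMA3 lie between 32.7 and 46.6 CPM at shares of 10.7% to 13.9%.

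Genes that work with the members were taken from lists, and their counts are for the combination against DMSO, where 13.1% of all genes passed. Of 40 cytoplasmic partners of integrins 38 were tested, 1 rose and 1 fell. Their median log2 change was -0.001, and 36 missed the threshold. TNS2, a tensin that links integrin tails to actin, fell by 1.28 ± 0.22 (edgeR adjusted p = 0.00309). ILK, the integrin-linked pseudokinase, rose by 0.35 ± 0.10 (edgeR adjusted p = 0.0437). FERMT3, the kindlin of blood cells, and GIT1, a paxillin partner, had changes of -0.78 ± 0.24 and 0.32 ± 0.11 and did not pass.

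Of 9 hemidesmosome and tetraspanin genes 7 were tested and 1 rose, with a median of 0.10. COL17A1, the transmembrane collagen of hemidesmosomes, was at 2.10, 3.14 and 2.52 CPM with DMSO, 3.78, 5.41 and 3.31 with 5-Ph-IAA, 2.92, 4.49 and 3.39 with ATRi, and 6.19, 6.83 and 7.56 with the combination. The combination libraries lay above all others, and the change was 1.41 ± 0.25 (edgeR adjusted p = 0.0037). The plakins DST and PLEC, which tie hemidesmosomes to keratins, had changes of -0.53 ± 0.22 and 0.47 ± 0.22, and the tetraspanin CD151 one of 0.19 ± 0.12, none past the threshold.

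Of 21 basement membrane partners of laminins 13 were tested, 1 rose and 3 fell, and the median was -0.18. FBLN1, a fibulin that binds laminin and nidogen, was at 14.3, 11.8 and 16.04 CPM with DMSO, 16.2, 17.1 and 18.4 with 5-Ph-IAA, 9.16, 10.2 and 12.1 with ATRi, and 4.65, 4.94 and 5.47 with the combination. Its combination libraries were the lowest, and it fell by 1.48 ± 0.16 (edgeR adjusted p = 0.000221). FRAS1, an extracellular matrix protein of the epithelial basement membrane, fell by 1.097 ± 0.226 (edgeR adjusted p = 0.00888). COL4A3, a chain of collagen IV, fell by 1.02 ± 0.22 (edgeR adjusted p = 0.0119), and HSPG2, the proteoglycan perlecan, rose by 0.48 ± 0.14 (edgeR adjusted p = 0.0425).

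Of 7 laminin receptors other than integrins 6 were tested and 1 rose. SDC4, a syndecan of focal contacts, was at 98.2, 117 and 103 CPM with DMSO and at 210, 216 and 260 CPM with the combination, which did not overlap. Its change was 1.11 ± 0.20 (edgeR adjusted p = 0.00497). SDC1, RPSA and BCAM had changes of 0.78 ± 0.37, -0.19 ± 0.12 and -0.73 ± 0.50 and did not pass.

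Of 34 genes listed as integrin ligands other than laminins 22 were tested, 5 rose and 17 missed the threshold, and the median was -0.03. Whether each listed gene binds an integrin was not measured. The matricellular protein CCN1, a ligand of several integrins, was at 12.4, 16.1 and 9.24 CPM with DMSO, 12.3, 15.8 and 10.3 with 5-Ph-IAA, 18.5, 16.4 and 15.4 with ATRi, and 77.7, 63.4 and 83.3 with the combination. The combination stood apart from all other libraries, and CCN1 rose by 2.57 ± 0.22 against DMSO (edgeR adjusted p = 6.05e-05). Its interaction was 2.13 ± 0.30 and passed (edgeR adjusted p = 0.037). CCN2, of the same family, rose by 2.54 ± 0.35, COL5A1, a fibrillar collagen chain, by 2.36 ± 0.35, and TGFB2, a latent growth factor, by 1.98 ± 0.49. The values of COL5A1 and TGFB2 rest on few counts, with means of 20.9 and 10.7 over the 12 libraries. With DMSO they were at 0.198 to 0.309 and 0.141 to 0.143 CPM. THBS1, a thrombospondin, was the fifth to pass.

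Of 20 matrix proteases and inhibitors 17 were tested, 1 rose and 1 fell. MMP1, an interstitial collagenase, was at 0.0309, 0.106 and 0.113 CPM with DMSO and at 1.79, 1.78 and 2.24 CPM with the combination, and it rose by 4.47 ± 0.50 (edgeR adjusted p = 0.000288), a fitted value that rests on few counts with DMSO. TLL1, a tolloid protease, fell by 1.16 ± 0.27 (edgeR adjusted p = 0.0157). ADAM10 and ADAM15 had changes of -0.60 ± 0.20 and -0.41 ± 0.15 and did not pass.

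Among 13 epithelial markers, 9 of them tested, the keratins KRT8, KRT18 and KRT19 rose by 1.35 ± 0.14, 1.04 ± 0.26 and 0.89 ± 0.20. The other 6 did not pass. Of these the adhesion molecule EPCAM and the claudin CLDN7 had changes of -0.35 ± 0.18 and -0.33 ± 0.21, and CDH1, CLDN4, CDX2 and KRT20 changes of 0.06 to 0.35. The fibroblast markers tested, PDGFRB and COL1A1, had changes of 0.40 ± 0.40 and -0.31 ± 0.45. The endothelial markers KDR and TEK had changes of -0.17 ± 0.46 and 0.03 ± 0.58. VWF, the other endothelial marker tested, had a mean of 0.672 CPM with DMSO and 0.669 CPM with the combination.

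By pattern over the 12 libraries, the genes most like LAMA3 among 13590 were MOSPD1 (Pearson r = 0.981 of log2 CPM), PTAFR (0.979) and ABCA12 (0.977). Those most like LAMB1 were SGSM1 (0.983), SCLT1 (0.981) and PLEKHG2 (0.972). These points share libraries and group means, and the values describe the likeness only.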

How the data were processed

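Poly(A) RNA of 12 libraries (4 groups of 3, grouped by sample title) was analysed from 1 deposited table of estimated counts per gene, made by the authors with Salmon 1.10.1. The submitters' processing notes also name STAR 2.7.9a, SAMtools 1.17, cutadapt 3.4, Trim Galore 0.6.7 and FastQC 0.12.1 with genome build GRCh38.p14. Not given in the sources used here are the annotation release, strand setting and read filters. Among the estimated counts as deposited, 6.93% lay more than 0.01 from a whole number, and all were rounded for testing. The genes, lists and tests were chosen with earlier results of these data known.

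TMM scaling and filterByExpr (10 counts as the minimum, 15 in total) left 18049 genes, with 99.89% or more of every library's counts. A single edgeR 4.0.16 quasi-likelihood model (limma 3.58.1, R 4.3.3) held 1 mean per group, with 6 contrasts and Benjamini-Hochberg adjustment over all 18049 genes at a threshold of 0.05. The median biological coefficient of variation was 0.214. Standard errors are the log2 change divided by the root of F. The procedure was also run on simulated independent libraries with genes changed only in the combination. These held no differences between sets or in mitochondrial share, and nothing is concluded from them here. Levels per kilobase used the longest GENCODE v29 transcript, and positions are RefSeq's on GRCh38.p14.

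Values in every library are given for members past the threshold in at least 1 contrast and for the most abundant chain of each kind, and from each list up to 4 genes with the smallest adjusted p in the combination against DMSO. LAMB3, ITGA2, ITGA2B and ITGB2, and the library values of listed genes, were added after their values were seen. The values of 1 tested member are not reported here. Alternatives were DESeq2 size factors, upper quartile factors, total counts, no filter, a stricter filter (1 CPM in 3 libraries, 50 counts in all), DESeq2 1.42.0, limma-voom, only the groups compared, the replicate number as a block, the mitochondrial share as a covariate, and leaving out each library. Same-numbered libraries of the combination and 5-Ph-IAA deviated together from their group means (correlations of 0.375, 0.18 and 0.543). The sample titles number sets 1 to 3 in every group and do not say what a set shares. The pairing is thus read from these correlations, and the block is given beside that comparison.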

Additional observations from a re-analysis of the deposited data

How the results depend on the processing

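Depth limits ITGAM and ITGB6, which had under 100 counts in every library. Overlap limits the 9 of 30 expressed members whose exons overlap those of another gene with at least 10 counts. These are ITGA1, ITGA6, ITGA7, ITGA9, ITGAE, ITGB1, ITGB7, LAMA5 and LAMB1. For ITGA1 an overlapping gene, PELO, lies on the same strand, where no strand setting would separate the reads of shared exons. Counts of members called are followed by the share of all genes called in the same fits. They were 0 under every alternative for 5-Ph-IAA against DMSO (0% to 0.0997% of all genes), for ATRi against DMSO (0% to 0.676%) and for the interaction (0.0108% to 1.54%). For the combination against DMSO (5 members) the count was 3 to 4 with 1 library left out (6.68% to 14% of all genes) and 11 with the mitochondrial covariate (35.7%). Against 5-Ph-IAA (4 members) it was 2 to 5 with 1 library left out (4.21% to 11%), 7 with the replicate block (19.6%) and 10 with the mitochondrial covariate (30.5%). Against ATRi (1 member) it was 0 to 2 with 1 library left out (0.726% to 4.69%), 3 by DESeq2 (8.09%), 2 with only the groups compared (5.68%), 6 with the replicate block (11%) and 7 with the mitochondrial covariate (17.7%). The replicate block gave 7 members in the combination against DMSO (25.3%). Same-numbered libraries correlated positively in every set only for the combination against 5-Ph-IAA, and 8 of 12 libraries correlated best with their own number. Libraries of set 3 correlated positively in every comparison of 2 groups (0.499 to 0.756). Set 3 also had the lowest mitochondrial share of each group, and the main model holds no term for the set. The cause of these differences between fits and between sets was not tested.

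Signs over the fits were followed for some members only, and ITGA6 and ITGAV were not among them. Of the log2 changes followed, those that turned sign had not passed the threshold. Of these only that of LAMA5 passed in another fit, with the mitochondrial covariate (-0.46). For 5-Ph-IAA against DMSO, ITGAM was -0.0938 by limma-voom, -0.0337 with the replicate block and -0.0855 with the mitochondrial covariate. With 1 library left out that change ran from -0.44 to 0.25 for ITGAM, -0.0716 to 0.0612 for LAMB1 and -0.13 to 0.0946 for ITGA7. For ATRi against DMSO that of ITGAM ran from -0.0383 to 0.49. For the combination against DMSO the ranges were -0.39 to 0.0825 for ITGA3, -0.0757 to 0.18 for ITGB1, -0.26 to 0.11 for ITGB4 and -0.50 to 0.35 for LAMA5. With the mitochondrial covariate the last comparison gave 0.033 for ITGB4 and 0.0756 for LAMC1. ITGB6 could not be fitted under the stricter filter or, for the combination, with only the groups compared. The changes of LAMA3, LAMB1 and ITGA7 in the combination against DMSO passed under all alternatives run.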
